A study of Mus musculus with 12 samples.

Results

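The guanylate-binding protein genes Gbp2, Gbp3, Gbp4, Gbp5, Gbp6, Gbp7, Gbp8 and Gbp9 were described in natural killer (NK) cells of the mouse, innate lymphocytes that produce interferon gamma and can lyse other cells. They are the 8 rows carrying these symbols among 55487 features of a deposited RNA-seq table, and all 8 passed a filter on low values that 12364 features passed. The 12 samples form 3 groups of 4, with the replicate labels f2, m2, m3 and m4 in each. Every sample came from the strain B6.129S4-Ifngtm3.1Lky/J with the genotype given as mut/mut, a line in which the interferon gamma gene Ifng carries a YFP (yellow fluorescent protein) reporter. All 12 samples, the unstimulated controls included, carry the label HD IL-15, and the study's title calls the cells IL-15 primed. The unstimulated group has no stimulation time on its labels. Both other groups were stimulated for 6 h with anti-NK1.1, an antibody against an activating surface receptor of NK cells, and were sorted on the reporter: YFP- samples without it and YFP+ samples with it. The sources used here give neither an age nor whether a label stands for 1 mouse across the groups, so p-values measure the spread between these samples, part of which may be technical.

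Guanylate-binding proteins are large GTPases of the dynamin superfamily that are induced by interferons. They bind and hydrolyse GTP, assemble on the membranes of vacuoles and bacteria inside cells, and are known for cell-autonomous defence against parasites and bacteria and for helping inflammasomes fire. In mice the genes lie in clusters on chromosomes 3 and 5. Interferon gamma acts through its receptor and the kinases Jak1 and Jak2 on genes with the GAS motif. Among the genes it induces is Irf1, a transcription factor of the family that binds the ISRE motif.

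Levels are given as CPM, the reads of a gene scaled to a common library total, and differences are on the log2 scale of the deposited values with their standard error (SE). Tests used limma over the 12364 genes with a Benjamini-Hochberg adjusted p, and a gene was called at an adjusted p under 0.05. Library totals ran from 32143536 to 54242394 reads, so 3 reads, the limit that a count of 0 allows, correspond to 0.0553 to 0.0933 CPM. In bulk RNA, fewer cells that express a gene and less RNA per cell cannot be told apart. Ribosomal-RNA-like features held 13.7% to 35.3% of the reads. Ifng, the gene that carries the reporter, stood at 4.04, 3.79, 3.66 and 4.19 CPM in the unstimulated samples f2, m2, m3 and m4, at 44.8, 54.5, 36.6 and 47.2 CPM in YFP- and at 341, 328, 304 and 343 CPM in YFP+, so the libraries followed their sort labels without overlap.

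The genome places Gbp5, Gbp7, Gbp3 and Gbp2 in this order on the plus strand of chromosome 3, and Gbp8, Gbp9, Gbp4 and Gbp6 on the minus strand of chromosome 5 (positions from GENCODE M21 on GRCm38, the build of the submitters' processing notes). Gbp5 (ENSMUSG00000105504) spans chr3:142493978-142522344, Gbp7 (ENSMUSG00000040253) chr3:142530342-142550149, Gbp3 (ENSMUSG00000028268) chr3:142560026-142573209 and Gbp2 (ENSMUSG00000028270) chr3:142620602-142638008. Gbp8 (ENSMUSG00000034438) spans chr5:105014150-105139540, Gbp9 (ENSMUSG00000029298) chr5:105077630-105139539, Gbp4 (ENSMUSG00000079363) chr5:105115767-105139586 and Gbp6 (ENSMUSG00000104713) chr5:105270702-105293698. RefSeq's GRCm38.p6 promoter table matched 4 of the 8, those on chromosome 3. Its start sites of Gbp5, Gbp3 and Gbp2 lie inside the GENCODE spans of those genes. Their sequences before the start therefore lie partly or wholly within these spans, and distances depend on the annotation. The 250 bases before the RefSeq start sites of the 4 genes are shown so that the interferon motifs can be read in place. These 4 were chosen because the promoter table matched them and not the other members. All 4 are on the plus strand, and capitals mark matches to the GAS motif TTCNNNGAA or to the ISRE core GAAANNGAAA on either strand. The GAS motif reads the same on both strands, and all the ISRE matches shown lie on the minus strand, so their letters appear as the reverse complement.
Gbp5 chr3:142496684-142496933: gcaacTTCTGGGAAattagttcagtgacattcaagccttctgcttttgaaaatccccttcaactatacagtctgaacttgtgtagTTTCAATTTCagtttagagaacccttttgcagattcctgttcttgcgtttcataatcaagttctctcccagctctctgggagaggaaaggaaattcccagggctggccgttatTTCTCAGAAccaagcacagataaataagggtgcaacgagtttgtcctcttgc
Gbp7 chr3:142530086-142530335: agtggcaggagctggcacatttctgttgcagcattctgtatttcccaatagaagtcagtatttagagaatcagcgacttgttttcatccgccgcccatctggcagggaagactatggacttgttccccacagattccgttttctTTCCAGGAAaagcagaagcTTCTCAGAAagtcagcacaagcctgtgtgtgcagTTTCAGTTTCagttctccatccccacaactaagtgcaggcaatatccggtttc
Gbp3 chr3:142559794-142560043: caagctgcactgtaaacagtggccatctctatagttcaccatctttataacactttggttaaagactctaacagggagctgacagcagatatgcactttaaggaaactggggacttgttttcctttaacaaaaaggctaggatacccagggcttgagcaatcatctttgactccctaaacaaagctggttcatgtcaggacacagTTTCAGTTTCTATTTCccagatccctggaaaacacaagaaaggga
Gbp2 chr3:142620413-142620662: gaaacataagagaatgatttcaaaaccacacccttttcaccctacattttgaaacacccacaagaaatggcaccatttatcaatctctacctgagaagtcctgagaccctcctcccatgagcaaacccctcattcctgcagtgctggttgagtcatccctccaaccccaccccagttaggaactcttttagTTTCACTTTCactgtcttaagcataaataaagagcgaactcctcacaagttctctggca

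The Gbp5 sequence holds 2 GAS matches, beginning 245 and 52 bases before the start site, and 1 ISRE match at 165 bases. The Gbp7 sequence holds 2 GAS matches at 106 and 87 bases and 1 ISRE match at 53 bases. The Gbp3 sequence holds 2 ISRE matches that share 4 bases, at 45 and 39 bases, while the window of a second annotated Gbp3 start holds neither motif. Gbp2 has 1 ISRE match at 59 bases. Of 32851 windows of 300 bases in the RefSeq table (250 before and 50 after each start), 8.30% held the GAS motif, 3.44% the ISRE motif and 0.454% both. These matches are letters in a sequence, and binding was not measured. In the map of motif matches, the ISRE matches of Gbp7, Gbp3 and Gbp2 begin between 59 and 39 bases before the start site.

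**Figure D1:**
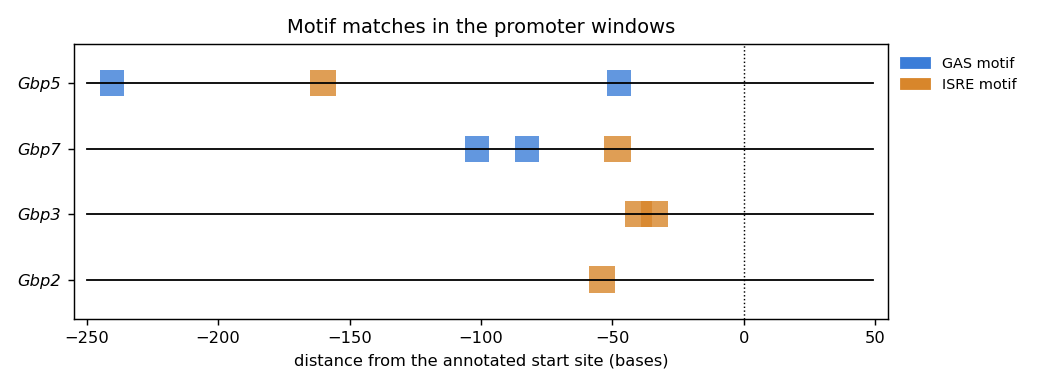
Positions of GAS (blue) and ISRE (orange) motif matches in the promoter windows of the chromosome 3 genes, in bases from the annotated start site, drawn to scale; for Gbp3 the window of its first annotated start is shown. Gbp5 and Gbp7 each hold 2 GAS matches and 1 ISRE match, Gbp3 holds 2 overlapping ISRE matches, and Gbp2 holds 1 ISRE match.

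Setting YFP+ beside YFP- samples addresses how cells that turned on the Ifng reporter differ from cells that did not after the same stimulation. All 8 guanylate-binding protein genes were lower in YFP+ than in YFP-, by 3.09-fold (Gbp8) to 7.38-fold (Gbp6, from 3 to 7 reads in each YFP+ library, with a fold that depends on the pseudocount), and the 4 YFP+ samples lay below the 4 YFP- samples for every one of the 8. Among all genes tested, 18.5% were called lower and 3.28% higher in this comparison. The share of all genes tested whose groups lay apart in this way is not given here. The median log2 difference was -2.11 over the 8 genes and -0.19 over all genes tested. The calls over all genes split into 405 higher and 2286 lower, and into 1170 higher and 1680 lower with trimmed-mean scaling. That and the other scalings moved the median of all genes to between 0.00 and 0.07, apart from removal of ribosomal-RNA-like features from the totals, which left it at -0.20. With the median of all genes centred by these scalings, the median of the 8 genes was -1.81 to -1.92 and all 8 were still called lower.

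Gbp2, a prenylated member of the family that is recruited to pathogen vacuoles, stood at 10.6, 11.6, 11.3 and 9.83 CPM in the unstimulated samples f2, m2, m3 and m4, at 10.4, 28.6, 8.99 and 14.2 CPM in YFP- and at 4.41, 3.76, 1.93 and 0.778 CPM in YFP+. The YFP- samples straddled the unstimulated ones, with m2 far above the rest, and the YFP+ samples lay below both groups with m4 lowest. Its log2 difference between YFP+ and YFP- was -2.63 (SE 0.47, limma adjusted p = 0.00135). Between YFP- and unstimulated it was 0.37 (SE 0.47, adjusted p = 0.530) and did not pass.

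Gbp3, in the same cluster on chromosome 3, stood at 9.63, 9.97, 8.28 and 6.38 CPM in the unstimulated samples, at 15.96, 32.0, 12.1 and 16.3 CPM in YFP- and at 7.28, 4.001, 2.15 and 2.68 CPM in YFP+. All 4 YFP- samples lay above all unstimulated ones, and the highest YFP+ sample, f2, reached into the unstimulated range. Gbp3 was 4.94-fold lower in YFP+ than in YFP- (log2 -2.30, SE 0.36, limma adjusted p = 0.000543). It was the 1 gene of the 8 called higher in YFP- than in unstimulated samples, by 2.11-fold (log2 1.08, SE 0.36, adjusted p = 0.0222), where 30.2% of all genes tested were called higher and 20.9% lower (3735 against 2586 genes, and 3273 against 3291 with centring on the median or 3124 against 3550 without ribosomal-RNA-like features in the totals). That call was lost without the m2 libraries (log2 0.88, adjusted p = 0.0982), without the m4 libraries (log2 0.99, adjusted p = 0.104) and with no filter on low values (adjusted p = 0.169), and its adjusted p over all alternatives ran from 0.00279 to 0.169.

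Gbp5, a prenylated member known for promoting inflammasome assembly, stood at 4.98, 4.18, 3.61 and 3.70 CPM in the unstimulated samples, at 7.02, 8.11, 4.68 and 5.20 CPM in YFP- and at 1.31, 1.38, 0.608 and 0.871 CPM in YFP+. Each YFP- sample was above the unstimulated sample of the same label, although the ranges overlapped, and all YFP+ samples were below both groups. Gbp5 was 6.10-fold lower in YFP+ than in YFP- (log2 -2.61, SE 0.27, limma adjusted p = 3.39e-05), which is the lowest adjusted p of the 8. Its difference between YFP- and unstimulated was 0.58 on the log2 scale (SE 0.27, adjusted p = 0.0917) and did not pass.

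Gbp7, the gene with the highest level per length, stood at 58.5, 55.2, 47.1 and 46.7 CPM in the unstimulated samples, at 42.9, 62.9, 37.2 and 32.8 CPM in YFP- and at 15.9, 15.0, 9.81 and 6.88 CPM in YFP+. The YFP- sample m2 was the highest of all 12, the other YFP- samples were below the unstimulated range, and the YFP+ samples were well below. It was 3.78-fold lower in YFP+ than in YFP- (log2 -1.92, SE 0.26, limma adjusted p = 0.000197). Of its exon bases, 11.3% lie in exons of another annotated gene on the same strand, Gm43802, which had 0 reads in every library. Reads from the shared bases cannot be assigned to Gbp7 alone by their position, and how they were counted is not given in the sources used here.

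On chromosome 5, Gbp4 stood at 39.8, 43.7, 46.9 and 32.9 CPM in the unstimulated samples, at 27.0, 46.6, 21.1 and 26.3 CPM in YFP- and at 14.7, 10.6, 5.58 and 4.82 CPM in YFP+. The YFP- samples other than m2 lay below the unstimulated range, and the YFP+ samples lay below both groups, with f2 and m2 above m3 and m4. Gbp4 was 3.59-fold lower in YFP+ than in YFP- (log2 -1.84, SE 0.33, limma adjusted p = 0.00134), and its YFP- difference from unstimulated was -0.48 (SE 0.33, adjusted p = 0.232).

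Gbp8 stood at 13.8, 15.4, 13.4 and 10.2 CPM in the unstimulated samples, at 9.93, 11.6, 6.52 and 9.26 CPM in YFP- and at 4.86, 5.18, 1.35 and 2.21 CPM in YFP+. Each YFP- sample was below the unstimulated sample of the same label, and the YFP+ samples fell into a higher pair (f2, m2) and a lower pair (m3, m4). Its fold difference was the smallest of the 8, 3.09-fold lower in YFP+ than in YFP- (log2 -1.63, SE 0.36, limma adjusted p = 0.00581). The call was lost without the m4 libraries (log2 -1.48, adjusted p = 0.0573) and with no filter on low values (adjusted p = 0.0732), and its adjusted p over all alternatives ran up to the latter.

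Gbp9 stood at 9.31, 9.94, 9.84 and 13.1 CPM in the unstimulated samples, at 8.51, 12.2, 4.79 and 6.16 CPM in YFP- and at 3.90, 1.73, 2.24 and 1.06 CPM in YFP+. The unstimulated sample m4 was the highest of all 12, unlike for the other genes on chromosome 5, and the YFP+ sample m4 was the lowest. Gbp9 was 3.70-fold lower in YFP+ than in YFP- (log2 -1.89, SE 0.36, limma adjusted p = 0.00202). The annotated models of Gbp4, Gbp8 and Gbp9 overlap on the chromosome, but their exons share only 60 to 61 bases.

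Gbp6 was the lowest of the 8 genes, at 1.44, 1.63, 0.703 and 1.23 CPM in the unstimulated samples, 1.02, 0.892, 0.530 and 1.24 CPM in YFP- and 0.143, 0.0737, 0.0829 and 0.156 CPM in YFP+. The YFP+ values rest on 7, 4, 3 and 5 reads, against 23 to 61 reads in each YFP- library and 28 to 62 in each unstimulated one. Its log2 difference between YFP+ and YFP- was -2.88 (SE 0.41, limma adjusted p = 0.000279). That size depends on the small prior of the deposited values: with a pseudocount of 1 CPM the log2 difference was -0.77, the smallest of the 8. Gbp6 passed the filter through 3 unstimulated and 2 YFP- samples, with 0 YFP+ samples above the limit, so its calls are not independent of the filter. The other 7 genes were each called lower in YFP+ than in YFP- in the main fit. With a stricter filter that left Gbp6 untested, the median log2 difference of those 7 was -1.92. Over the summed Gbp6 reads of each group, 19 against 173, the ratio of YFP+ to YFP- CPM was 0.119, with a 95% exact binomial interval of 0.0700 to 0.192 that covers counting error only.

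**Figure D2:**
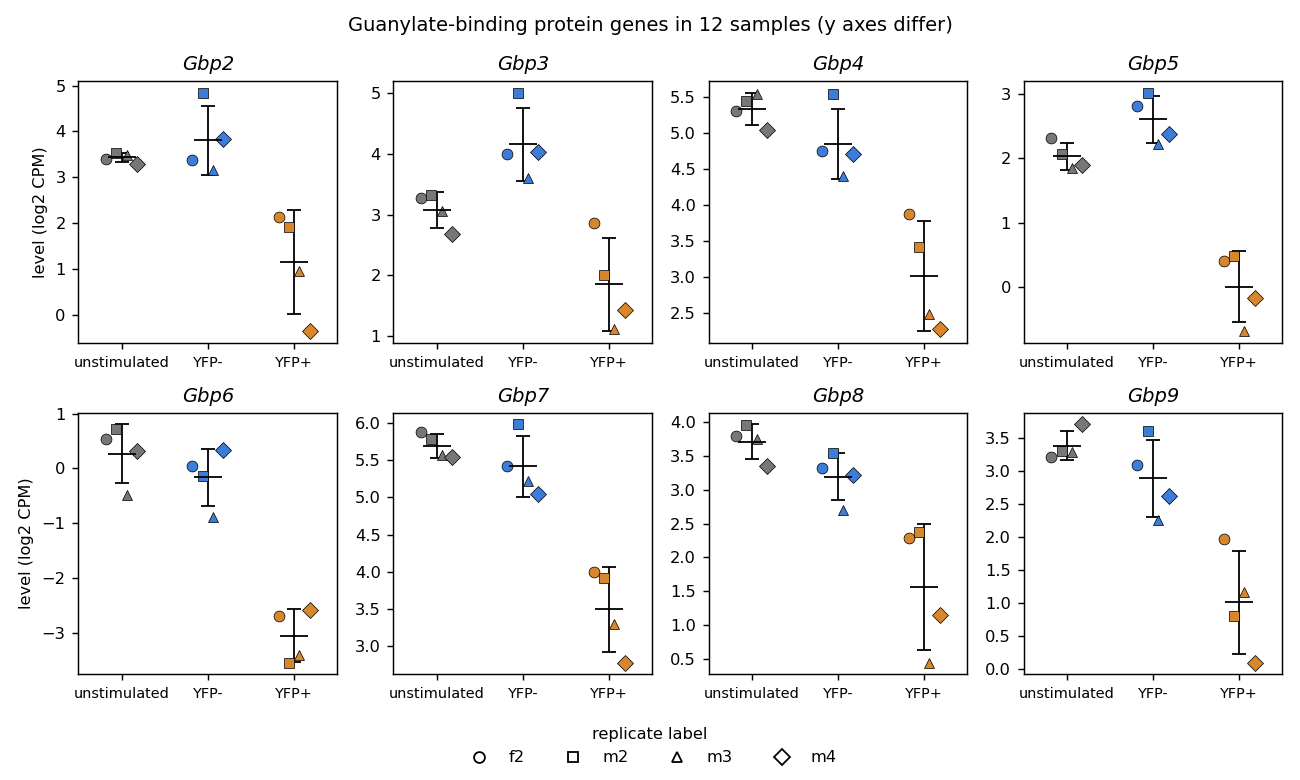
Level (log2 CPM, 1 panel per gene, y axes differ) of the 8 genes in each of the 12 samples; symbols give the replicate label, horizontal bars the group mean and error bars 1 SD (n = 4). In every panel the 4 YFP+ samples lie below the 4 YFP- samples, and YFP- m2 is the highest YFP- sample for 7 of the 8 genes.

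Against the unstimulated samples, the YFP+ samples also had lower levels of all 8 genes, from 2.34-fold for Gbp3 (log2 -1.23, SE 0.36, limma adjusted p = 0.00884) to 10.0-fold for Gbp6 (log2 -3.32, SE 0.41, adjusted p = 9.80e-06). Among all genes tested, 33.3% were called lower and 27.5% higher in this comparison (4122 against 3400 genes), a balance that turned to 3785 lower and 4122 higher with centring on the median and was 5125 lower and 2912 higher without ribosomal-RNA-like features in the totals. The fold of Gbp6 rests on few reads here too, and its log2 difference was -0.998 with a pseudocount of 1 CPM. Its call here is likewise not independent of the filter. The median log2 difference was -2.23 over the 8 genes and -0.03 over all genes. The groups did not overlap for 7 of the 8 genes, Gbp3 being the exception, and its call was lost with no filter on low values (adjusted p = 0.0825). The share of all genes tested without such overlap is not given here. The log2 differences were -2.26 for Gbp2, -2.33 for Gbp4, -2.03 for Gbp5, -2.19 for Gbp7, -2.14 for Gbp8 and -2.38 for Gbp9. This comparison shares its samples with each of the others, so the 3 are not independent.

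Between YFP- and unstimulated samples, 1 of the 8 genes was called higher (Gbp3), 0 were called lower and 7 did not pass. Of all genes tested, 30.2% were called higher and 20.9% lower. The median log2 difference was -0.36 over the 8 genes and 0.14 over all genes tested. For the genes not yet given, the difference was -0.28 for Gbp7 (SE 0.26, limma adjusted p = 0.391), -0.44 for Gbp6 (SE 0.41, adjusted p = 0.389), -0.52 for Gbp8 (SE 0.36, adjusted p = 0.251) and -0.49 for Gbp9 (SE 0.36, adjusted p = 0.267). The differences of Gbp2, Gbp3 and Gbp5, all on chromosome 3, were above 0, and those of Gbp7 and the 4 genes on chromosome 5 were below 0. Values that miss the threshold do not show that the levels were equal.

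**Figure D3:**
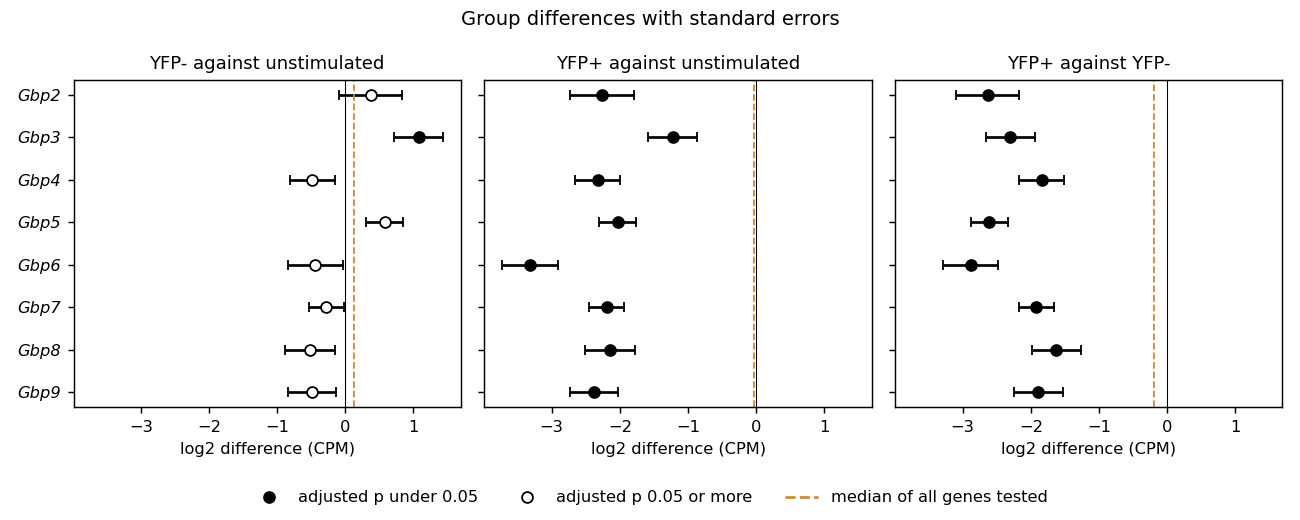
Log2 difference of each gene in the 3 comparisons, with bars of 1 SE from the limma fit over 12 samples; filled points have an adjusted p under 0.05 and the dashed line is the median of all genes tested. All 8 points are filled and below 0 in both comparisons of YFP+ samples, and Gbp3 alone is filled in the comparison of YFP- with unstimulated samples.

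Compared per length (CPM per kilobase of annotated exons), Gbp7 was first in every group, at 2.12 ± 0.769 (SD, n = 4) in YFP+ samples, 7.83 ± 2.37 in YFP- samples and 9.24 ± 1.05 in unstimulated ones. In the unstimulated group Gbp4 (5.45 ± 0.806), Gbp2 (4.30 ± 0.308), Gbp8 (3.84 ± 0.638), Gbp3 (2.62 ± 0.499) and Gbp9 (2.04 ± 0.333) followed, each overlapping the next over its samples. Gbp5 (0.621 ± 0.0946) and Gbp6 (0.210 ± 0.0673) were last, each apart from the gene before it. In YFP- samples the order was Gbp7, Gbp2 (6.18 ± 3.57), Gbp3 (5.85 ± 2.702), Gbp4 (4.04 ± 1.496), Gbp8 (2.71 ± 0.618), Gbp9 (1.53 ± 0.629), Gbp5 (0.942 ± 0.240) and Gbp6 (0.155 ± 0.0501), and only Gbp6 was apart from its neighbour. In YFP+ samples the order was Gbp7, Gbp3 (1.23 ± 0.705), Gbp4 (1.19 ± 0.620), Gbp2 (1.08 ± 0.663), Gbp8 (0.988 ± 0.554), Gbp9 (0.432 ± 0.235), Gbp5 (0.157 ± 0.0553) and Gbp6 (0.0191 ± 0.00697), again with only Gbp6 apart. Gbp5 and Gbp6 thus had the lowest levels per length in all 3 groups.

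Summed over the 8 genes, the level was 19.4 to 52.6 CPM in YFP+ libraries, 96.0 to 203 CPM in YFP- libraries and 124 to 152 CPM in unstimulated ones. The YFP- maximum is the m2 library, and the other 3 YFP- libraries were at 96.0 to 123 CPM. The genes on chromosome 3 gave 55.03% to 61.05% of that sum in YFP+ libraries, 61.4% to 65.7% in YFP- libraries and 49.8% to 56.5% in unstimulated ones. The share was therefore higher in each YFP- library than in any unstimulated or YFP+ library, a description for which no test was run.

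**Figure D4:**
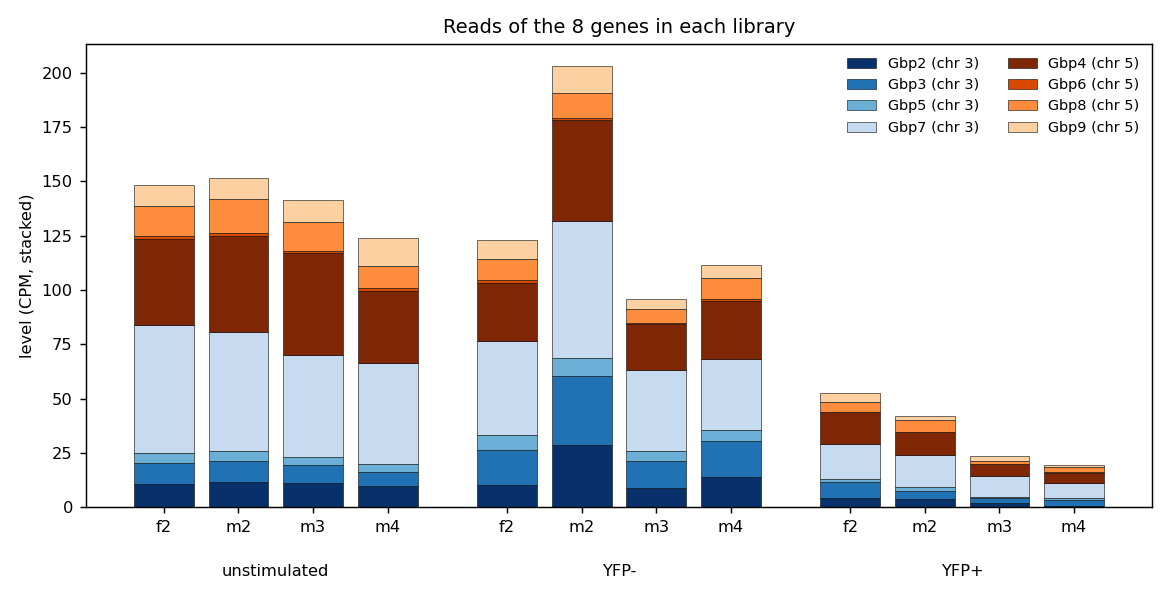
Level (CPM, stacked from 0) of the 8 genes in each library, with the chromosome 3 genes in blue and the chromosome 5 genes in orange and brown; each bar is 1 library named by its replicate label. The YFP+ bars end between 19.4 and 52.6 CPM, and the YFP- bars between 96.0 and 203 CPM.

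The spread between samples of a group differed between the groups. The median SD of the log2 level over the 8 genes was 0.77 in YFP+ samples, 0.50 in YFP- samples and 0.22 in unstimulated ones, and the median SD over all genes tested was 0.34, 0.25 and 0.21 in the same order. In YFP- samples m2 was the highest library for 7 of the 8 genes (m4 for Gbp6) and m3 the lowest for 7 (m4 for Gbp7). In YFP+ samples f2 was the highest for 5, and the lowest was m4 for 4, m3 for 3 and m2 for 1. The genes of a library thus tended to lie on the same side of their group means. The YFP- library m2 was above the group mean for 8 of 8 genes and m3 for 0 of 8, and the YFP+ library f2 for 8, m2 for 6, m3 for 1 and m4 for 1.

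The share of ribosomal-RNA-like reads also differed between these libraries, and its part in the spread was not tested. It was 15.9% in YFP- m2, 18.7% in f2, 20.0% in m4 and 30.3% in m3, and 13.7% in YFP+ f2, 16.3% in m2, 23.1% in m4 and 29.8% in m3. In these 2 groups the library with the least of it had the highest median deviation of the 8 genes from their group means. In the unstimulated group it did not: m2 had the least (27.4%), while f2 (30.8%) had the highest median deviation (0.132, against 0.106 in m2). In YFP+ the lowest median deviation was that of m4 (-0.570) and not of m3 (-0.437). With these features left out of the totals, YFP- m2 was still above its group mean for 7 of 8 genes and m3 for 0, YFP+ f2 for 8, m3 for 1 and m4 for 1. The 8 genes were all called lower in YFP+ than in YFP- with those totals, with a median log2 difference of -2.12. The share overlapped between the YFP- and YFP+ groups. The mitochondrial share of reads did not: it was 0.629% to 0.861% in YFP- and 0.320% to 0.418% in YFP+ libraries, against 0.587% to 0.951% in unstimulated ones, and its part in the result was not tested.

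Some members share sequence with close copies. Of the 150-base stretches in Gbp6 transcripts, 29.0% also occur in Gbp10, 53.7% in Gm43302, a gene model that spans parts of Gbp6 and Gbp10, and 59.1% in either. Of its exon bases, 29.0% lie in exons of Gm43302. Both overlapping gene models, Gm43302 and Gm43802, and the sum over the Gbp6 locus were chosen after values were seen. Gm43302 had 0 to 2 reads per library. For Gbp7 8.77% of the stretches occur in Gm43802, for Gbp4 0.0254% in Gbp11, and for Gbp2, Gbp3, Gbp5, Gbp8 and Gbp9 none (0%) do. How reads with several matches were counted is not given in the sources used here, so the level of Gbp6 is uncertain. The summed reads of Gbp6, Gbp10 and Gm43302 were lower in YFP+ than in YFP- by 1.96 on the log2 scale (-1.48 against 0.48 in mean log2 CPM), with no overlap between the groups.

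Of the other Gbp genes, Gbp2b, Gbp10 and Gbp11 were below the filter and were tested with an exact 2-sided permutation test of 4 against 4 samples, over 9 tests, for which 0.0286 is the smallest p. Gbp2b (chromosome 3) had at most 5 reads in any library, and no fold is given. Gbp10 (chromosome 5) had 93 reads in the unstimulated group, 99 in YFP- and 47 in YFP+, and its log2 difference between YFP+ and YFP- was -0.98 (exact permutation p = 0.143, adjusted p = 0.257). Against unstimulated samples it was -1.35 (exact permutation p = 0.0286, adjusted p = 0.0857). Gbp11 (chromosome 5, annotated as a polymorphic pseudogene) had 79, 61 and 3 reads in the same order. Its ratio of YFP+ to YFP- CPM was 0.0534, with a 95% exact binomial interval of 0.0107 to 0.163 for counting error (exact permutation p = 0.0286, adjusted p = 0.0857). Of the 9 tests, 3 had an unadjusted p under 0.05 and 0 passed after adjustment.

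Of 5 tested genes of interferon gamma signalling, through which interferon gamma induces this family, 4 were called lower in YFP+ than in YFP- samples (18.5% of all genes tested), 0 higher and 1 did not pass. Over the 17 alternatives 2 to 4 were called lower, with 3 under other scalings and 2 of the 6 genes listed with no filter. Ifngr1, the ligand-binding chain of the receptor, averaged 229 CPM in YFP- and 54.8 CPM in YFP+ (log2 -2.33, SE 0.47, limma adjusted p = 0.00309, and 0.0550 with no filter). Ifngr2, the second receptor chain, did not pass the filter and had at most 15 reads in any library. Jak1, a receptor kinase, was lower by 0.68 on the log2 scale (218 CPM in YFP- and 135 CPM in YFP+). Jak2, its partner kinase, had a log2 difference of -0.12 (SE 0.20) that did not pass and that was above 0 with trimmed-mean scaling, with centring on the median and without the f2 libraries. Socs1, an inhibitor of the pathway, differed by -0.68 (SE 0.22, adjusted p = 0.0414), a call lost in most alternatives, with an adjusted p of up to 0.313.

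Irf1, which is both part of the pathway and one of its targets, stood at 46.3, 41.7, 34.6 and 29.2 CPM in the unstimulated samples, at 39.0, 34.3, 26.3 and 29.2 CPM in YFP- and at 15.8, 13.1, 4.56 and 5.48 CPM in YFP+. As for the Gbp genes other than Gbp6 and Gbp9, YFP+ f2 and m2 were above m3 and m4, and all 4 were below both other groups (log2 -1.91 against YFP-, SE 0.34, limma adjusted p = 0.00142). Between YFP- and unstimulated samples the Irf1 difference was -0.23 (SE 0.34, adjusted p = 0.594). The 4 YFP+ samples thus combined the highest Ifng levels of the 12 with the lowest Irf1 levels.

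Of 6 genes of type I interferon signalling, which reaches some of the same target genes through the ISRE motif, 5 were called lower in YFP+ than in YFP- (18.5% of all genes tested) and 0 higher, and 2 to 5 were called lower over the 17 alternatives. Irf9, the DNA-binding part of the complex that recognises the ISRE, was lower by 1.61 on the log2 scale (SE 0.29, limma adjusted p = 0.00164), and its YFP- level was above unstimulated (log2 1.05, adjusted p = 0.00895, and 0.0848 with no filter). Ifnar2, a receptor chain, was lower by 1.16 (SE 0.17, adjusted p = 0.000417). Stat2 differed by -0.48 (SE 0.19, adjusted p = 0.0829) and did not pass.

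The immunity-related GTPases, a second family of interferon-induced GTPases that acts on the same vacuoles, were called lower in YFP+ than in YFP- for 5 of 5 tested genes (18.5% of all genes tested), and for 3 to 5 over the 17 alternatives, where a stricter filter left 3 to test. Tgtp1 and Irgm2 passed the filter through their unstimulated and YFP- samples, with 0 YFP+ samples above the limit, so their calls are not independent of the filter. The other tested genes, Tgtp2, Igtp and Irgm1, were each called lower in YFP+ than in YFP- in the main fit. Tgtp1 and Tgtp2, close copies of each other whose reads may be split between them, averaged 3.07 and 17.0 CPM in YFP- and 0.254 and 1.96 CPM in YFP+, with log2 differences of -3.75 (SE 0.41) and -3.32 (SE 0.40). The regulatory members were lower by less, Irgm2 by 1.66, Igtp by 1.36 and Irgm1 by 0.89 on the log2 scale. Irgm1 lost its call in 5 alternatives, among them the fits without f2, without m2 and without m3 (adjusted p of up to 0.114). Against unstimulated samples 5 of 5 were called lower in YFP+ (33.3% of all genes tested). In YFP- 1 of 5 was called lower, near the 20.9% of all genes tested. That gene was Irgm2 (log2 -1.07, limma adjusted p = 0.0117, and 0.102 without the m4 libraries). Iigp1 did not pass the filter and had at most 11 reads in any library.

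Of 12 tested genes that interferon gamma is known to induce in many cells, 9 were called lower in YFP+ than in YFP- (18.5% of all genes tested) and 0 higher, and 6 to 11 were called lower over the 17 alternatives. Of the 12, Cxcl10 passed the filter through its YFP- samples alone and Ciita, the activator of MHC class II genes, through its unstimulated samples alone, so their calls are not independent of the filter, and without both 8 of 10 were called lower. Cxcl10, a chemokine, averaged 0.473 CPM in YFP+ samples, 4.49 CPM in YFP- samples and 0.651 CPM in unstimulated ones, given as levels without a test. Tap1, a peptide transporter of antigen presentation, was lower by 1.49 in YFP+ than in YFP- (SE 0.39, limma adjusted p = 0.0139), a call lost without the m3 and without the m4 libraries (adjusted p = 0.0587 and 0.0527). Between YFP- and unstimulated samples 3 of those 10 were called higher and 4 lower, against 30.2% and 20.9% of all genes tested, so the share called higher was near that of all genes. Irf8, a transcription factor, rose by 1.37 (adjusted p = 6.48e-05), while Nlrc5, the activator of MHC class I genes, differed by -1.69 (adjusted p = 5.15e-06) and Psmb9, an immunoproteasome subunit, by -1.52 (adjusted p = 1.62e-06). Between YFP+ and unstimulated samples 1 of the 10 was called higher and 6 lower, against 27.5% and 33.3% of all genes tested. Psmb9 differed there by -2.80 (SE 0.14).

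Of 10 genes of the ubiquitin-like conjugation system that places guanylate-binding proteins on vacuoles, 2 were called lower in YFP+ than in YFP- (Map1lc3b, log2 -0.67, limma adjusted p = 0.000879, and Gabarap, log2 -0.29, adjusted p = 0.0418, a call lost in 13 alternatives with an adjusted p of up to 0.857), a share near the 18.5% of all genes tested. Between YFP- and unstimulated samples 7 of the 10 were called higher (30.2% of all genes tested), with Gabarapl1, which marks autophagosome membranes, at 1.87 (SE 0.14) and Atg7, the enzyme that activates these proteins, at 1.14 (SE 0.41), and 4 to 8 were called over the 17 alternatives. Atg7 was not called without the m2 and without the m4 libraries (adjusted p = 0.119 and 0.190). Of 6 enzymes of prenylation and of the steps that follow it, 0 were called in YFP+ against YFP- by limma, 0 had an unadjusted p under 0.05, and 0 were called under any of 17 alternatives. In YFP- against unstimulated samples 4 of the 6 were called higher (30.2% of all genes tested, and 3 to 6 of the 6 over the alternatives), among them Zmpste24, a protease that trims prenylated proteins (log2 1.08, adjusted p = 0.00165) and Pggt1b, a subunit of a prenyl-transferring enzyme (log2 0.78, adjusted p = 0.00372).

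Of 9 listed inflammasome genes 5 were tested, and 2 of the 5 were called lower in YFP+ than in YFP- (18.5% of all genes tested) and 0 higher, with 1 to 2 lower and up to 1 higher over the 17 alternatives. The other 4, Nlrp3, Il1b, Il18 and Il1a, did not pass the filter. Il1a, a cytokine of the interleukin 1 family that is singled out here after its values were seen, ran the other way, at 3.01 CPM in YFP+ samples (up to 268 reads), 0.490 CPM in YFP- samples and 0 CPM in unstimulated ones. Pycard, the adaptor of the complex, averaged 63.3 CPM in YFP- and 26.8 CPM in YFP+ (log2 -1.26, SE 0.13, limma adjusted p = 3.98e-05), and Gsdmd, the pore-forming protein, differed by -0.69 (SE 0.17, adjusted p = 0.0105, and 0.0562 without the m4 libraries). Casp4, a sensor caspase that guanylate-binding proteins help to activate, was higher in YFP- than in unstimulated samples by 2.26 (SE 0.15, adjusted p = 1.20e-07), while Pycard was lower by 1.08 (adjusted p = 2.38e-05).

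**Figure D5:**
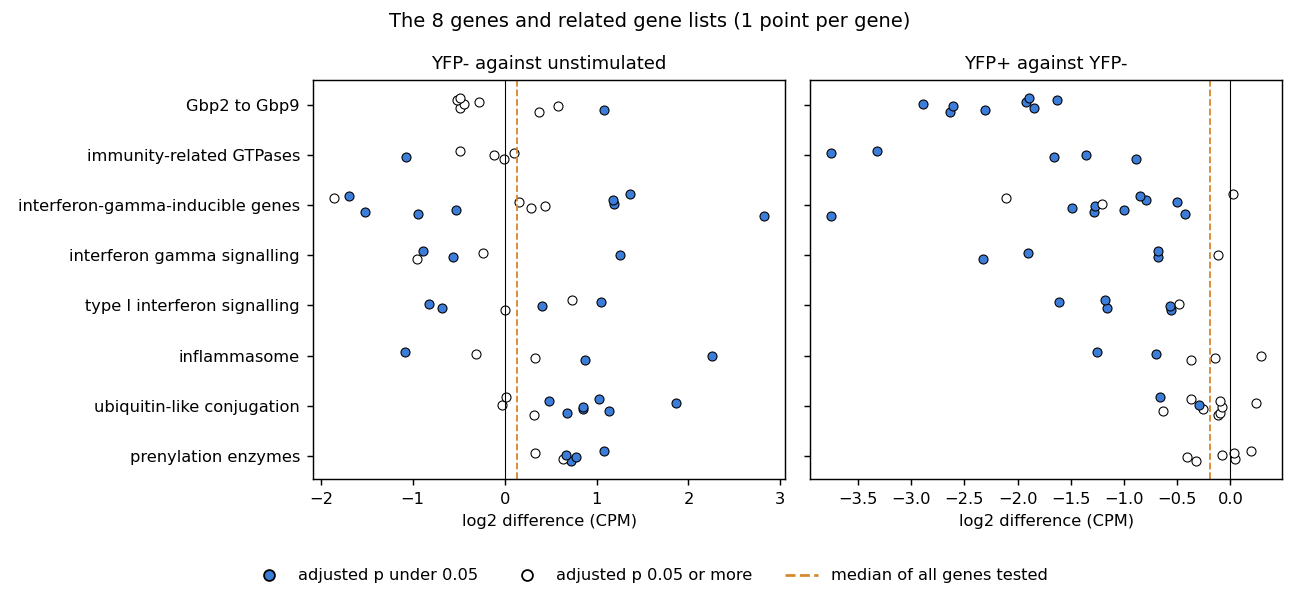
Log2 difference of each tested gene of the Gbp family and of related gene lists, 1 point per gene, for YFP- against unstimulated (left) and YFP+ against YFP- (right, x axes differ); filled points have an adjusted p under 0.05 and the dashed line is the median of all genes tested. On the right all 8 Gbp genes and all 5 tested immunity-related GTPases are filled and below 0, while none of the 6 prenylation enzymes is filled.

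The genes whose log2 level was most like the mean standardised profile of the 8 over the 12 samples were Neil3 (Pearson r = 0.989), Apobec3 (0.986), Neurl3 (0.985), Nuf2 (0.985) and Pbxip1 (0.984). Neil3 is a DNA glycosylase, Apobec3 a cytidine deaminase that restricts retroviruses and Nuf2 a kinetochore protein. These values describe likeness over samples that fall into groups and share library and depth, and carry no test. Mean levels of Apobec3 were 82.8 CPM in YFP+ samples, 226 CPM in YFP- samples and 247 CPM in unstimulated ones, and those of Neil3 were 1.02, 8.41 and 8.29 CPM in the same order.

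Markers of other cell types were read beside these results. The summed level of 7 macrophage or monocyte markers was 14.7 to 24.1 CPM in YFP+ libraries, below the 27.3 to 44.4 CPM of YFP- and the 53.0 to 60.2 CPM of unstimulated libraries, so it was lower in YFP+ than in YFP- libraries, as the Gbp genes were. Cd68 held nearly all of it (26.9 to 43.0 CPM in YFP- and 14.0 to 23.5 CPM in YFP+), and the other 6 together were at 0.469 to 1.40 and 0.266 to 0.663 CPM, with Lyz2, C1qa and C1qb at 0 in all YFP- libraries and Adgre1 at 0 in all YFP+ libraries. The sum of 5 dendritic cell markers was 29.0 to 35.3 CPM in YFP+ and 49.5 to 69.7 CPM in YFP- libraries. It was 38.1 to 49.8 CPM in unstimulated ones, led by Itgax, which NK cells also express. All 3 that were tested, Itgax, Xcr1 and Zbtb46, were called lower in YFP+ than in YFP- (18.5% of all genes tested). Xcr1 differed by -1.39 and Zbtb46 by -0.87 on the log2 scale. Xcr1 and Zbtb46 were called higher in YFP- than in unstimulated samples, by 3.18-fold and 9.88-fold, and Itgax did not pass. Of 5 B cell markers the sum was 0.470 to 1.37, 0.922 to 2.86 and 1.78 to 4.19 CPM in YFP+, YFP- and unstimulated libraries, led by Cd79b. The part of all these markers in the result was not tested. The sum of 7 T cell markers was 63.6 to 94.98, 67.3 to 93.7 and 52.6 to 113 CPM, but its genes moved apart. Of the 3 tested, 1 was called higher in YFP+ than in YFP- (3.28% of all genes tested) and 0 lower. Trac, of the T cell receptor, was the gene called higher (log2 0.51, limma adjusted p = 0.0300), and it was 4.56-fold higher in YFP- than in unstimulated samples (adjusted p = 1.88e-07). Cd3d and Cd3g differed by -0.61 and -0.73 between YFP+ and YFP- and did not pass. Both were called lower in YFP+ than in unstimulated samples (limma adjusted p = 0.0119 and 0.00590). Cd3e, below the filter and singled out after its values were seen, averaged 0.0363 CPM in YFP+, 0.915 CPM in YFP- and 0.529 CPM in unstimulated samples, with YFP+ below both groups without overlap. The sum of 3 neutrophil markers was at most 0.395 CPM. The 7 NK cell markers, led by Nkg7, summed to 3330 to 3824, 2432 to 3035 and 3482 to 4021 CPM, so RNA of the labelled cell type was present in every library. Of the 7, 4 were called lower and 1 higher in YFP+ than in YFP-, against 18.5% and 3.28% of all genes tested. Nkg7 was called higher (log2 0.64). The largest difference was that of Klrb1c, which averaged 75.3 CPM in YFP- and 6.50 CPM in YFP+ (log2 -3.59, SE 0.23). Its unstimulated mean was 308 CPM, so it was lower in both stimulated groups. Between YFP- and unstimulated samples it differed by -2.05 (SE 0.23, limma adjusted p = 8.74e-06), and the cause was not tested.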

How the data were processed

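RNA of 12 samples was read as paired ends of 150 bases from cDNA made from 10 ng of total RNA with a SMARTer Ultra Low kit, per the labels' protocols. Reads were processed with bcl2fastq, STAR 2.7.9a and featureCounts 2.0.3 of Subread on GRCm38, per the submitters' processing notes, and the annotation and strand setting are not given in the sources used here. The authors deposited moderated log2 CPM, per the file headers: log2 of the reads plus a small prior (0.517 reads at the mean total), scaled to a common library total. Whole reads followed for 100% of values within 0.001. Of 55774 lines 287 repeats were dropped, and there were 0 per-sample columns of no sample.

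limma 3.58.1 (R 4.3.3) was fitted to 12364 genes with log2 CPM above 0 in at least 4 samples, with 1 coefficient per group and an intensity trend. Each gene had 1 estimate of spread shared by the groups, although the spread of the 8 genes differed between them. The fit was tested on simulated data that had the same spread setting in every group, so differing spreads were not tried there. The genes, lists and named genes were chosen with earlier results of these data known. Named genes are the 8 members, Ifng, Irf1, up to 4 per list (all of lists of up to 7), and the 5 genes most like the family, and 1 gene is not reported here. Promoters come from RefSeq (GRCm38.p6) and exon lengths from GENCODE M21.
Replicate block, samples, filter, pseudocount, scaling, variance model and each label left out were tried as alternatives. Floors and intervals cover counting error only.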

Additional observations from a re-analysis of the deposited data

How the results depend on the processing

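Over 17 alternatives, 391 of 405 values of the 8 genes kept their direction and their side of the threshold, and none reversed. The count called in YFP+ against YFP- was 7 to 8, and 7 to 8 against unstimulated samples, where a stricter filter left Gbp6 untested. The count in YFP- against unstimulated, 1 in the report, was 2 with the replicate block, 2 with a pseudocount of 1 CPM and 2 with sample weights (Gbp5 gained, higher), 3 with only the 8 samples compared and 3 with voom weights (Gbp5 gained, higher, and Gbp8, lower), 2 with quantile normalization (Gbp4 gained, lower), 0 with no filter, and 0 to 1 with 1 replicate label left out. The cause was not tested. The labels were not taken as pairing in the main fit. Deviations of same-label samples correlated at 0.054 to 0.374 between YFP+ and YFP-. There m2, m3 and m4 correlated best with their own label, and f2, the lowest, did not. Between YFP- and unstimulated the correlations ran from -0.059 to 0.100, and only f2 correlated best with its own label. Between YFP+ and unstimulated they ran from -0.042 to 0.375, and f2 and m4 correlated best with their own label. With the replicate block, all 8 genes were called in both comparisons of YFP+ samples, and the calls over all genes in YFP+ against YFP- went from 2691 to 3098. Those calls numbered 1583 with no filter, 1571 without replicate m2 and 1643 without replicate m4. Of the other named genes, Jak2 in YFP+ against YFP- reversed with centring on the median (0.14), trimmed-mean scaling (0.072, also with the replicate block) and voom weights (0.052), ranged from -0.27 to 0.13 with 1 label left out (above 0 without f2), and 785 of 861 values were unchanged in direction and call. Gbp6 in YFP+ samples, at 3 to 7 reads, is limited by depth.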
